A study of Mus musculus with 6 samples.

Results

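The insulin-like growth factor (IGF) genes followed here are 8 of the 25823 genes in the table: the ligand gene Igf1, its receptor gene Igf1r, and Igfbp2, Igfbp3, Igfbp4, Igfbp5, Igfbp6 and Igfbp7, which encode IGF binding proteins. They were chosen by name, as the ligand, the receptor and the binding proteins of a pathway whose loss causes deafness. All 8 passed the filter of a mean of at least 0.1 FPKM (fragments per kilobase of transcript, scaled to the depth of the library), as did 19649 genes in all.

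IGF-1 is a small secreted hormone and local growth factor that signals through a receptor tyrosine kinase to the PI3K-AKT and RAS-MAPK cascades. The binding proteins hold IGFs in blood and tissue, extend their life and limit or direct their access to the receptor, and proteases release the ligand by cutting them. In the inner ear IGF-1 is needed for the growth, differentiation and survival of cochlear neurons and hair cells, and mice and humans that lack it are deaf.

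The tissue was cochlear basilar membrane of C57BL/6 mice, a strain with early age-related hearing loss (AHL). The young group was 1 month old and the old group 12 months old, and each group had 3 samples, every one a pool of tissue from 3 mice. No treatment or engineered allele is given for either group, and the sex of the mice is not given in the sources used here. Pools average the differences between mice, so that the p-values measure the spread between these pools. The steps between low FPKM values correspond to 12420000 to 15420000 fragments per sample, and 93.4 to 95.2% of those values lay within 0.1 of a whole number of steps. The markers of the labelled tissue were present: each of 10 hair cell genes and 9 supporting cell genes passed the filter. Hair cell genes summed to 716 to 960 FPKM in young and 374 to 443 FPKM in old samples, and supporting cell genes to 1436 to 1621 and 1628 to 1766 FPKM. Calb2 alone held 504 to 838 FPKM of the hair cell sum in young and 303 to 349 FPKM in old samples. The sum thus mainly follows Calb2 and says little about the other hair cell genes. In young replicates 1, 2 and 3 Calb2 (766, 838 and 504 FPKM) ran in the order of the summed neuron genes (831, 1037 and 525 FPKM). Which cells carried the Calb2 mRNA was not tested. Of the hair cell genes, Otof, Myo7a and Strc overlapped between the ages, and the others were lower in every old sample. All FPKM values below are relative to the length of the transcript, and every log2 change is old minus young on log2(FPKM + 0.1). The samples are bulk tissue, so that fewer cells of a type and less RNA per cell cannot be told apart.

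With limma and adjustment over the whole table, 1 of the 8 genes rose in old mice, Igfbp2, and 1 fell, Igfbp6, while 6 did not pass. Among all genes tested 9.09% passed, 5.41% as higher and 3.68% as lower. The old and young samples were fully separate for 3 of the 8 genes, with Igfbp2 and Igfbp4 higher and Igfbp6 lower in old mice, against 33.5% of all genes (17.5% higher and 16% lower). The median log2 change of the 8 genes was 0.0046 and that of all genes 0.0087. With 3 samples against 3, the exact permutation test of a single gene cannot give a two-sided p below 0.1, and it gave 0.1 for Igfbp2, Igfbp4 and Igfbp6, between 0.3 and 0.9 for Igf1, Igf1r, Igfbp3 and Igfbp7, and 1 for Igfbp5.

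**Figure D1:**
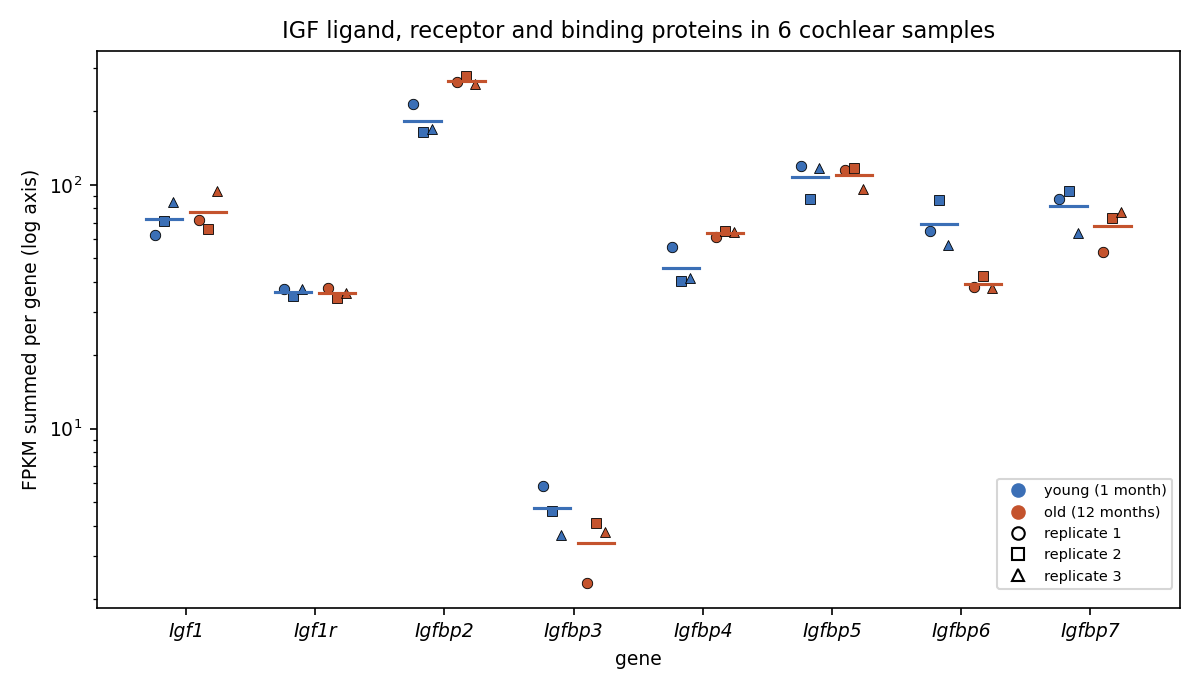
FPKM summed per gene (log axis) of the 8 IGF genes in 3 young (blue) and 3 old (orange) samples, with a symbol per replicate number and a bar at each group mean. The 3 old samples lie above the 3 young ones for Igfbp2 and Igfbp4 and below them for Igfbp6, and the groups overlap for the other 5 genes.

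Igfbp2 was the most abundant of the 8 genes in both groups, and Igfbp3 the least. In young mice the order was Igfbp2 (183 FPKM), Igfbp5 (108), Igfbp7 (81.8), Igf1 (72.6), Igfbp6 (69.3), Igfbp4 (45.7), Igf1r (36.5) and Igfbp3 (4.71). The young samples of Igfbp5 and Igfbp7, of Igfbp7 and Igf1, and of Igf1 and Igfbp6 overlapped, so that these neighbours cannot be ordered, while all other neighbours were separate. In old mice the order was Igfbp2 (267 FPKM), Igfbp5 (109), Igf1 (77.0), Igfbp7 (67.7), Igfbp4 (63.3), Igfbp6 (39.4), Igf1r (36.0) and Igfbp3 (3.41). The old samples of Igf1 and Igfbp7, of Igfbp7 and Igfbp4, and of Igfbp6 and Igf1r overlapped. Igfbp6 thus lay above Igfbp4 in every young sample and below it in every old sample. Igfbp2 ranked within the top 1.63% of the genes tested by mean level, and Igf1 within the top 5.64%. The place of Igf1 rests in part on short transcripts with few estimated fragments. Its transcript with the highest FPKM, Igf1-202, alone averaged 29.9 FPKM in young and 30.7 FPKM in old mice, below Igf1r.

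Igf1 encodes the ligand. Its gene (ENSMUSG00000020053) lies on the plus strand of chromosome 10 of GRCm38 from 87858265 to 87937042, and all 8 annotated transcripts are in the table. Igf1 was at 62.1, 70.8 and 84.8 FPKM in young replicates 1, 2 and 3, against 71.4, 65.6 and 93.8 FPKM in old replicates 1, 2 and 3. The groups overlapped, and replicate 3 was the highest in each. The young mean was 72.6 ± 11.4 and the old mean 77.0 ± 14.9 FPKM (SD, n = 3 each). The log2 change was 0.08 (SE 0.16, 95% interval -0.29 to 0.45, adjusted p in limma 0.781). The interval leaves room for a fall by 0.29 or a rise by 0.45 on the log2 scale. Its direction turned without old replicate 3 (-0.07) and without young replicate 1 (-0.03), and with each other sample left out the change stayed above 0.

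Igf1 transcripts differ at both ends, and the differing coding pieces are shown because they define the transcripts whose levels follow. The mature hormone is encoded by the exons between these ends. Class 1 transcripts begin translation in an upstream exon and class 2 transcripts in a downstream one, which changes the signal peptide. At the other end, the Ea form runs straight into the last exon, and the Eb form first passes through an additional exon of 52 nt, which changes the E peptide that is cut from the hormone. The pieces were read 5′ to 3′ from the plus strand in GENCODE M21, and capitals mark the 52 nt exon.
Class 1 coding start, chr10:87859350-87859412: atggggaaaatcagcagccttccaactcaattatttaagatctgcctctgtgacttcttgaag
Class 2 coding start, chr10:87861371-87861385: atgaccgcacctgca
Ea tail, chr10:87930675-87930731: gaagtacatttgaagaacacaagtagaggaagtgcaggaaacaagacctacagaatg
Eb tail, chr10:87915298-87915349 joined to chr10:87930675-87930697: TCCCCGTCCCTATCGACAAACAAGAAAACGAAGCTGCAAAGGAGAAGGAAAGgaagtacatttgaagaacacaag
The Eb tail ends its coding part after 23 nt of the last exon and the Ea tail after 57 nt, with the same bases read in another frame.

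The transcript with the highest FPKM was Igf1-202 (ENSMUST00000095360), a class 1 Ea transcript of 7052 nt. It was at 29.9, 25.1 and 34.7 FPKM in young and 35.6, 30.3 and 26.1 FPKM in old replicates 1, 2 and 3, with a log2 change of 0.04 (SE 0.16) and an adjusted p of 0.929 in limma over all transcripts. The class 2 Eb transcript Igf1-208 came next, at 18.4, 24.4 and 25.9 FPKM in young and 16.8, 14.3 and 33.8 FPKM in old replicates. It is annotated with 510 nt and an incomplete 3′ end. FPKM divides by a length that was reduced by 260 to 300 nt, so that few fragments give a high value for so short a transcript. Igf1-208 rests on an estimated 43.8 to 95.4 fragments per sample, and Igf1-202 on 2336 to 3177. Igf1-202 held 86.5 to 93.4% of the estimated Igf1 fragments, but less of the summed FPKM. The high Igf1 sum of old replicate 3 came with its short transcripts, as Igf1-208 and the class 2 Ea transcript Igf1-205 (18.8 FPKM, against 2.18 to 6.81 in the other samples) were highest there, and Igf1-202 was the lowest of the old samples. The other transcripts, Igf1-206, Igf1-203, Igf1-204, Igf1-201 and Igf1-207, were at 16.0 FPKM or less in every sample.

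Class 1 transcripts together made up 46.5 ± 4.59% (SD, n = 3) of Igf1 FPKM in young and 45.1 ± 13.1% in old mice (exact permutation test, two-sided, p = 0.9). Transcripts with the Eb exon made up 51.4 ± 6.05% in young and 44.3 ± 5.69% in old mice (exact permutation test, two-sided, p = 0.2). By estimated fragments the Eb share was 7.25 ± 2.01% in young and 6.55 ± 1.42% in old mice. Neither share was separated by age. The 8 transcripts share coding sequence, so that the division of fragments between them is the estimate of Cuffdiff.

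**Figure D2:**
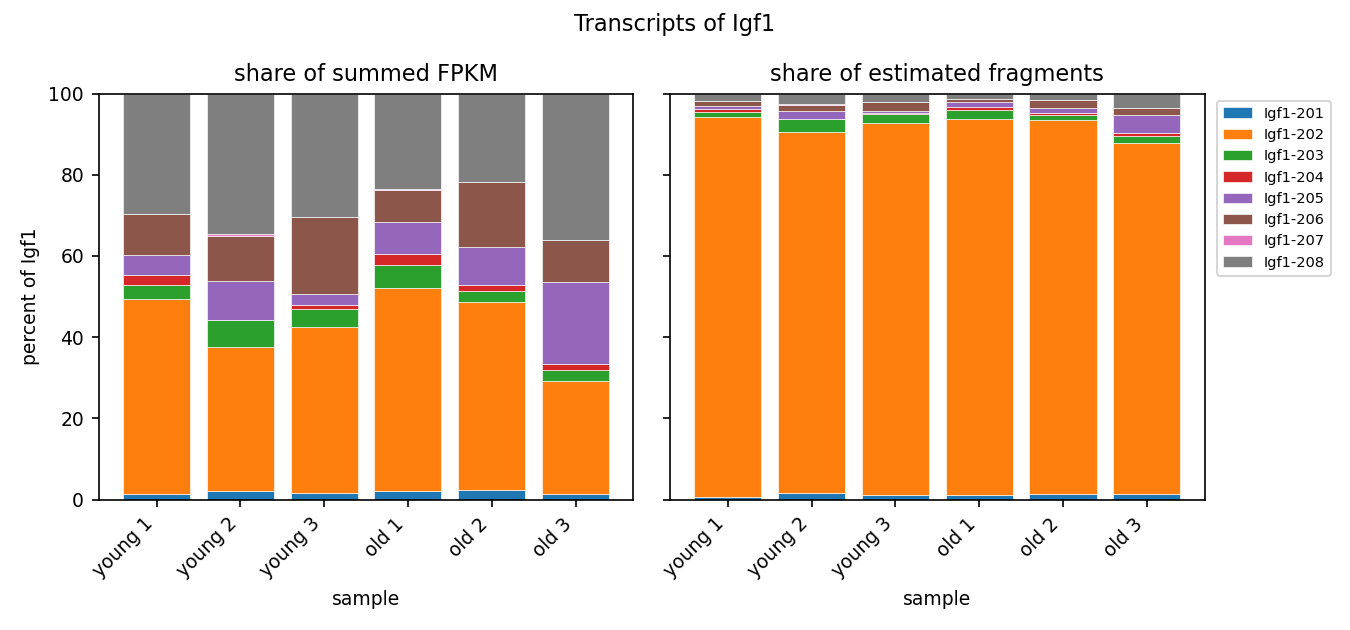
Share of each of the 8 Igf1 transcripts (percent of Igf1) in the 3 young and 3 old samples, by FPKM on the left and by estimated fragments on the right. Igf1-202 (orange) holds 86.5 to 93.4% of the fragments, while the short transcripts, Igf1-208 above all (grey), take up much of the FPKM.

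Igf1r encodes the receptor tyrosine kinase that binds IGF-1. Its gene (ENSMUSG00000005533) lies on the plus strand of chromosome 7 from 67952827 to 68233668, and 1 of its 6 annotated transcripts is in the table, ENSMUST00000005671, with 21 exons and 11409 nt. Igf1r was at 37.2, 34.9 and 37.4 FPKM in young and 37.8, 34.5 and 35.8 FPKM in old replicates 1, 2 and 3. The groups overlapped, and its coefficient of variation was 3.76% in young mice, the smallest of the 8 genes, and 4.66% in old mice, where Igfbp2 (4.10%) and Igfbp4 (3.12%) varied less. The log2 change was -0.02 (SE 0.07, 95% interval -0.18 to 0.15, limma adjusted p = 0.893), which is the narrowest interval of the 8. Its direction turned without old replicate 2 (0.01).

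Igfbp2 encodes a binding protein that also carries an integrin-binding motif. It lies on the plus strand of chromosome 1 from 72824503 to 72852474 (ENSMUSG00000039323). Igfbp2 was at 213, 165 and 170 FPKM in young replicates 1, 2 and 3, against 263, 279 and 258 FPKM in old replicates 1, 2 and 3. Every old sample lay above every young sample, and the old samples were closer to each other than the young ones. Igfbp2 rose from 183 ± 26.6 FPKM (SD, n = 3) to 267 ± 10.9 FPKM (SD, n = 3), 1.46-fold, a log2 change of 0.55 (SE 0.10, 95% interval 0.31 to 0.80, limma adjusted p = 0.0261). The transcript Igfbp2-201 (ENSMUST00000047328) carried nearly all of it, at 164 to 210 FPKM in young and 255 to 275 FPKM in old samples. The change was between 0.48 and 0.67 with each sample left out, and the adjusted p passed the threshold only without young replicate 1 or young replicate 3. It was 0.0713, 0.0960 and 0.0683 without old replicates 1, 2 and 3 and 0.0770 without young replicate 2. It was also lost with no filter (0.0507) and without the variance trend (0.0858).

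Igfbp4 encodes a binding protein that mainly holds IGFs back from the receptor and is cut by the protease PAPP-A. It lies on the plus strand of chromosome 11 from 99041244 to 99054392 (ENSMUSG00000017493). Igfbp4 was at 55.4, 40.2 and 41.6 FPKM in young replicates 1, 2 and 3, against 61.1, 64.9 and 64.0 FPKM in old replicates 1, 2 and 3. Every old sample lay above every young sample, and young replicate 1 came nearest to the old ones, as it did for Igfbp2. The means were 45.7 ± 8.39 and 63.3 ± 1.98 FPKM (SD, n = 3 each), a log2 change of 0.48 (SE 0.12, 95% interval 0.20 to 0.77) that did not pass the threshold (limma adjusted p = 0.0525). It passed without young replicate 1 (log2 change 0.63, limma adjusted p = 0.0198), with sample weights (0.0446) and with a filter of 1 FPKM (0.0436). It did not pass with any other sample left out (limma adjusted p 0.111 to 0.154) or without the variance trend (0.129). The short transcript Igfbp4-204 (ENSMUST00000140772, 742 nt) was at 11.8 to 17.9 FPKM in young and 24.8 to 26.8 FPKM in old samples, with 65.4 to 190 estimated fragments. The long transcript Igfbp4-201 (ENSMUST00000017637, 3831 nt) was at 25.2 to 37.5 and 36.3 to 39.3 FPKM, where the groups overlapped, with 1226 to 2164 estimated fragments. With the long transcript alone the log2 change of Igfbp4 was 0.30 (limma adjusted p = 0.226).

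Igfbp6 encodes the binding protein that prefers IGF-2 to IGF-1. It lies on the plus strand of chromosome 15 from 102144362 to 102149511 (ENSMUSG00000023046), with 1 annotated transcript of 1112 nt. Igfbp6 was at 64.6, 86.5 and 56.7 FPKM in young replicates 1, 2 and 3, against 38.0, 42.3 and 37.7 FPKM in old replicates 1, 2 and 3. Every old sample lay below every young sample, and the spread was wide among the young samples, with replicate 2 the highest. Igfbp6 fell from 69.3 ± 15.5 FPKM (SD, n = 3) to 39.4 ± 2.55 FPKM (SD, n = 3), 0.568 of the young mean, a log2 change of -0.79 (SE 0.15, 95% interval -1.14 to -0.44, limma adjusted p = 0.0265). The change was between -0.93 and -0.62 with each sample left out. The adjusted p was 0.0776, 0.0796 and 0.0761 without old replicates 1, 2 and 3 and 0.0570 without young replicate 1, and it passed without young replicates 2 and 3. It was also lost with no filter (0.0524) and without the variance trend (0.0811).

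The bases upstream of Igfbp2, Igfbp4 and Igfbp6 are shown because these are the genes whose groups were separate. Each line gives the 250 bases before the start of transcription in RefSeq (GRCm38.p6, plus strand), 5′ to 3′. Capitals mark the letters GGGCGG (the GC box), TATAAA (the TATA box) or CACGTG (an E box), searched on both strands.
Igfbp2, chr1:72824230-72824479: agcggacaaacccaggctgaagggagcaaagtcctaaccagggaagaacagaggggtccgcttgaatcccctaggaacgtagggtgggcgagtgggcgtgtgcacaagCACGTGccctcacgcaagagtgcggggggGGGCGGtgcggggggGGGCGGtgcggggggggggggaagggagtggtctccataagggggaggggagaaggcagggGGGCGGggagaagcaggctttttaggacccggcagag
Igfbp4, chr11:99040994-99041243: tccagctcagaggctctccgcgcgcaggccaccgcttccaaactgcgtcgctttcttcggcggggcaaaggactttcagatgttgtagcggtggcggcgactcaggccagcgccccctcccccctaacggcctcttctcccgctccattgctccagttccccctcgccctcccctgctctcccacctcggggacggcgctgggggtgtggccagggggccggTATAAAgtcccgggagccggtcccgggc
Igfbp6, chr15:102143936-102144185: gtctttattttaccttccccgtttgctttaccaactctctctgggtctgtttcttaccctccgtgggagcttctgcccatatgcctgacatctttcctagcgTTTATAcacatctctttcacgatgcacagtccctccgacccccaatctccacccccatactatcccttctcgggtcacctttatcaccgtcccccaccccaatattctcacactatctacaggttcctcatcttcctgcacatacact
The Igfbp2 window holds 3 GC boxes and 1 E box, the Igfbp4 window 1 TATA box near its end, and the Igfbp6 window 1 TATA box on the opposite strand. Of the 32851 windows of this length in the table, 32.7% hold a GC box, 12.4% a TATA box and 6.02% an E box. G and C made up 67.2, 69.2 and 49.6% of the Igfbp2, Igfbp4 and Igfbp6 windows, against a median of 52.4%. The RefSeq start of Igfbp6 lies 176 nt before the start of its transcript in GENCODE.

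Igfbp5 encodes a binding protein that attaches to matrix and is abundant in connective tissue and bone. It lies next to Igfbp2, on the minus strand of chromosome 1 from 72857932 to 72874884 (ENSMUSG00000026185), with 5457 nt between the ends of both genes. Igfbp5 was at 119, 87.7 and 117 FPKM in young and 115, 117 and 96.3 FPKM in old replicates 1, 2 and 3. The groups overlapped, with 1 lower sample in each. The log2 change was 0.03 (SE 0.13, 95% interval -0.29 to 0.34, limma adjusted p = 0.917), and its direction turned without young replicate 2 (-0.12), without old replicate 1 (-0.01) or old replicate 2 (-0.03), and with quantile normalization (-0.06). The ratio of Igfbp2 to its neighbour Igfbp5 was 1.45 to 1.88 in young and 2.30 to 2.68 in old samples, without overlap (two-sided exact permutation p = 0.1). This ratio was chosen after the values were seen.

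Igfbp7 encodes a secreted protein with low affinity for IGFs that is typical of vessel walls. Its gene is on the minus strand of chromosome 5 from 77349240 to 77408041 (ENSMUSG00000036256). Igfbp7 was at 87.7, 94.5 and 63.3 FPKM in young and 53.0, 73.0 and 77.1 FPKM in old replicates 1, 2 and 3. The groups overlapped, since young replicate 3 lay below old replicates 2 and 3. The log2 change was -0.27 (SE 0.19, 95% interval -0.71 to 0.17, limma adjusted p = 0.399).

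Igfbp3 encodes the main IGF carrier of blood, where it forms a complex with the ligand and the protein of Igfals. Its gene is on the minus strand of chromosome 11 from 7206086 to 7213923 (ENSMUSG00000020427). Igfbp3 was at 5.84, 4.61 and 3.68 FPKM in young and 2.34, 4.11 and 3.78 FPKM in old replicates 1, 2 and 3. This is the lowest level of the 8 genes and rests on an estimated 60.9 to 160 fragments per sample. The groups overlapped, and the log2 change was -0.47 (SE 0.26, 95% interval -1.08 to 0.14, limma adjusted p = 0.289), the widest interval of the 8.

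**Figure D3:**
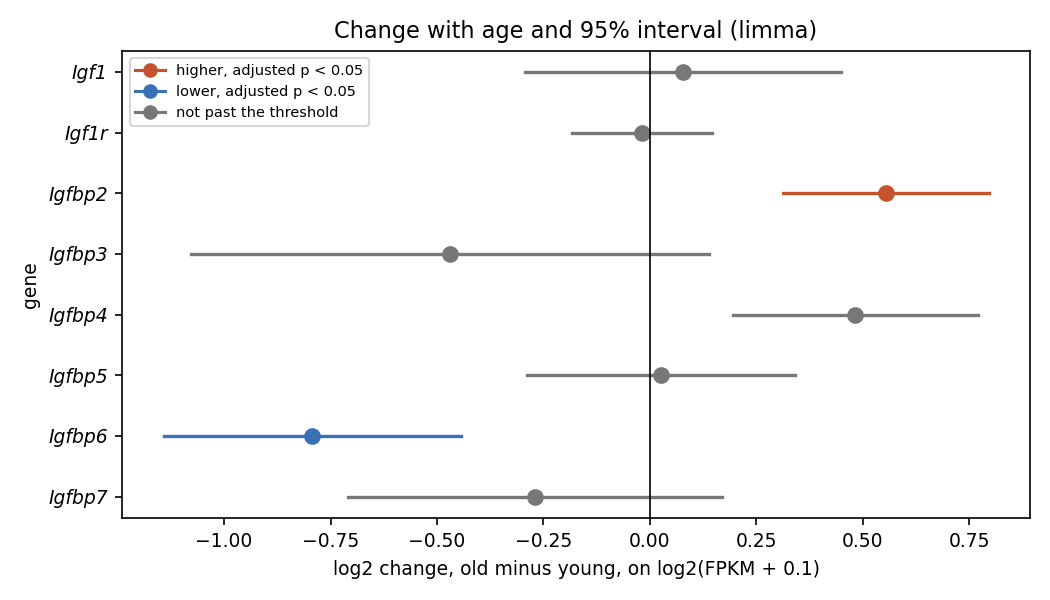
Log2 change (old minus young, on log2(FPKM + 0.1)) of the 8 IGF genes with the 95% interval of limma. Igfbp2 (0.55) is marked as higher and Igfbp6 (-0.79) as lower, and the interval of Igfbp4 also lies above 0 although its adjusted p is 0.0525.

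Because the table is per transcript, the same test was made for the transcripts of the 8 genes. Of their 20 transcripts in the table, 19 were tested, and with limma 0 passed the threshold in either direction with p adjusted over all transcripts, among which 0.748% passed. At an unadjusted p below 0.05 there were 3, against 17% of all transcripts: Igfbp2-201 (limma adjusted p = 0.0680), Igfbp4-204 (0.0712) and Igfbp6-201 (0.0729). Old and young samples were separate for these same 3, 2 higher and 1 lower, against 24.6% of all transcripts (12.6% higher and 12% lower). The transcripts Igfbp3-202, Igfbp7-202, Igfbp2-202 and Igfbp4-205 were minor in their genes, at 3.93 FPKM or less in every sample.

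The summed mRNA of the 6 binding protein genes overlapped between the ages, while the shares of 4 of the genes in it did not. The sum was 546, 478 and 453 FPKM in young and 532, 581 and 537 FPKM in old replicates 1, 2 and 3, with means of 492 ± 48.1 and 550 ± 26.5 FPKM (SD, n = 3 each). The groups overlapped, and the log2 difference of 0.16 was not separated from 0 (exact permutation test, two-sided, p = 0.3). Igfbp2 made up 39.1, 34.5 and 37.6% of the sum in young and 49.4, 48.1 and 48.0% in old replicates. The share of Igfbp6 was 11.8, 18.1 and 12.5% in young and 7.14, 7.29 and 7.03% in old replicates. The share of Igfbp4 went from 9.25 ± 0.870% to 11.5 ± 0.374%, and that of Igfbp3 from 0.949 ± 0.130% to 0.617 ± 0.154%. These 4 shares did not overlap between the ages (two-sided exact permutation p = 0.1 each), and those of Igfbp5 and Igfbp7 did. The shares add up to the whole, so that a rise of Igfbp2 alone lowers the others. Without Igfbp2 the sum was 310 ± 25.2 FPKM in young and 283 ± 16.6 FPKM in old mice. The ratio of Igfbp2 to Igfbp6, chosen after the values were seen, was 3.30, 1.91 and 3.00 in young and 6.92, 6.60 and 6.83 in old replicates. Igf1 FPKM per 100 FPKM of binding proteins was 15.0 ± 3.68 in young and 14.1 ± 3.14 in old mice (exact permutation test, two-sided, p = 0.7). The Igf1 value in this ratio includes its short transcripts with few estimated fragments.

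**Figure D4:**
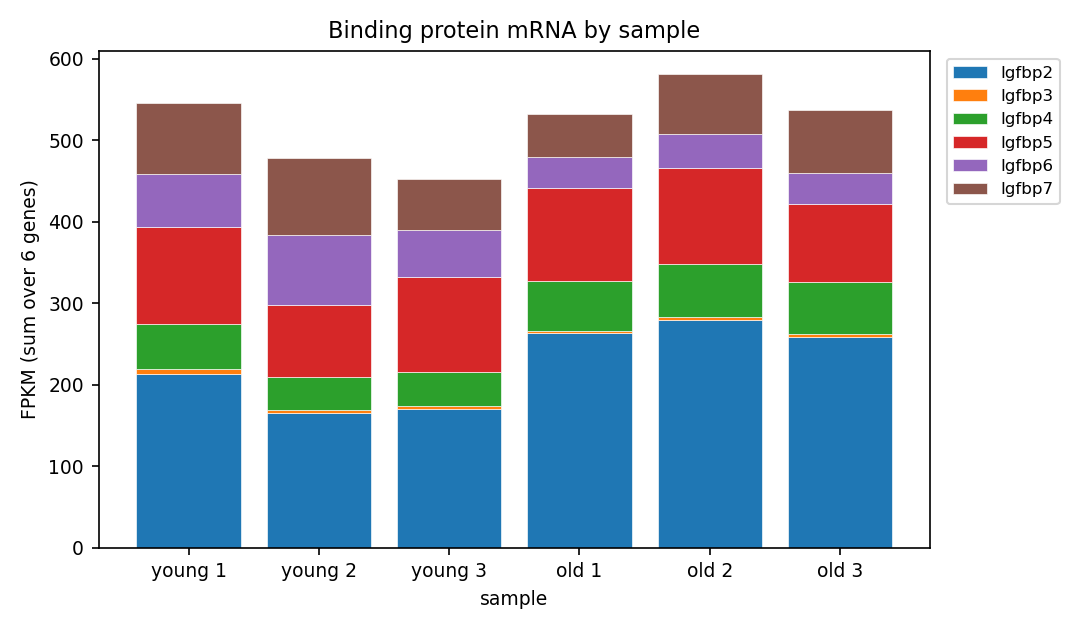
FPKM of the 6 binding protein genes stacked by sample, 3 young and 3 old. The whole bars overlap between the ages (453 to 546 FPKM in young, 532 to 581 FPKM in old), while the Igfbp2 part is larger and the Igfbp6 part smaller in every old sample.

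The other genes of the pathway were taken from a list of 70, of which 62 passed the filter. With limma 2 rose, 2 fell and 58 did not pass, which is 4 of 62 against the 9.09% of all genes called. The median log2 change of the list was 0.0060. The called genes described here are the proteases Pappa and Pappa2 and Socs3, and 27 of the 62 had groups that did not overlap, 10 higher and 17 lower in old mice, where 33.5% of all genes were separate, 17.5% higher and 16% lower.

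The proteases moved in opposite directions. Pappa encodes PAPP-A, which cuts IGFBP-4 and releases the ligand from it. Pappa was at 4.69, 7.75 and 6.40 FPKM in young and 2.31, 2.74 and 2.60 FPKM in old replicates 1, 2 and 3. Every old sample lay below every young sample, and Pappa fell by 1.24 on the log2 scale (SE 0.20, limma adjusted p = 0.0209). The call was lost without old replicates 1, 2 and 3 (0.0624, 0.0708 and 0.0589), without young replicate 2 (0.0600) and without the variance trend (0.0541). Pappa2 encodes a related protease that cuts IGFBP-3 and IGFBP-5. Pappa2 was at 0.244, 0.148 and 0.329 FPKM in young and 0.936, 0.871 and 0.722 FPKM in old replicates, where every old sample lay above every young one. Its log2 change was 1.5 (SE 0.36, limma adjusted p = 0.0472), and its size depended on the pseudocount, with 0.57 at a pseudocount of 1 and 1.83 at 0.01. The call of this low gene was lost with each sample left out (0.0523 to 0.152) and with no filter (0.0534), a pseudocount of 0.01 (0.0526), quantile normalization (0.0562) and its most abundant transcript alone (0.0792). Of Stc1, Stc2 and Htra1, which encode 2 inhibitors of these proteases and a further protease, 0 passed with limma, and 0 had an unadjusted p below 0.05. The old samples of Stc2 lay below the young ones (means of 0.508 and 0.771 FPKM), and Stc1 and Htra1 overlapped.

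Igf2, the other ligand, was at 16.3, 12.9 and 14.7 FPKM in young and 18.9, 19.0 and 20.97 FPKM in old replicates. Every old sample lay above every young one, and the log2 change of 0.43 (SE 0.11) just missed the threshold (limma adjusted p = 0.0515). It passed with sample weights (0.0465), with a filter of 1 FPKM (0.0420) and with the most abundant transcript (0.0458). It did not pass with any sample left out (limma adjusted p 0.0570 to 0.134) or without the variance trend (0.111). The ratio of Igf1 to Igf2 was 5.02 ± 1.07 in young and 3.90 ± 0.522 in old mice and overlapped (exact permutation test, two-sided, p = 0.2). Of the receptors, Igf2r, which clears IGF-2, was at 37.0 ± 2.40 and 39.8 ± 1.57 FPKM (log2 change 0.11, limma adjusted p = 0.401). The insulin receptor gene Insr was at 21.8 ± 1.97 and 22.4 ± 1.43 FPKM, with a log2 change of 0.04 (limma adjusted p = 0.821) that turned to -0.08 with its most abundant transcript. Igfals was at 2.03 ± 0.267 and 2.40 ± 0.262 FPKM (limma adjusted p = 0.475). Igfbp1 was listed at 0 in all samples and Ins2 too, while Ins1 (0.110 FPKM) and Igfbpl1 (0.0622 FPKM) were above 0 in 1 sample each, and these 4 were not tested.

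Socs3 encodes an inhibitor of cytokine and growth hormone signalling that also acts on the insulin receptor. Socs3 rose from 4.25, 3.38 and 4.49 FPKM in young to 6.74, 10.5 and 10.7 FPKM in old replicates 1, 2 and 3 (log2 change 1.16, SE 0.21, limma adjusted p = 0.0244). The call was lost without old replicate 2 (0.0920), old replicate 3 (0.0720), young replicate 1 (0.0545) or young replicate 2 (0.0753) and without the variance trend (0.0670). The other 6 growth hormone genes, with the receptor gene Ghr at 28.5 ± 1.82 and 23.9 ± 2.57 FPKM, did not pass. Of all 7, Socs3 included, 4 had an unadjusted p below 0.05 in limma, as did 27.5% of all genes. The groups were separate for 3 higher genes, Socs3 among them, and 1 lower gene, Ghr, against 33.5% of all genes.

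Of the 9 adaptor genes and 22 PI3K-AKT-mTOR genes tested, 0 passed with limma, and 3 and 7 had an unadjusted p below 0.05, as did 27.5% of all genes. Irs1, the adaptor that links the receptor to PI3K, was nearest, at 7.25, 7.96 and 7.50 FPKM in young and 4.39, 4.90 and 6.00 FPKM in old replicates (log2 change -0.57, SE 0.14, limma adjusted p = 0.0509). The old samples of Irs1 lay below the young ones, and it passed with sample weights (0.0374), a filter of 1 FPKM (0.0378) and median-of-ratios scaling (0.0494). Irs1 did not pass with any sample left out (limma adjusted p 0.0579 to 0.152) or without the variance trend (0.0901). Pdpk1, whose kinase activates AKT, was at 27.1 ± 3.51 and 19.97 ± 1.34 FPKM (log2 change -0.43, SE 0.11, limma adjusted p = 0.0567). It passed without young replicate 1 (0.0438), with sample weights (0.0452) and with a filter of 1 FPKM (0.0470). It did not pass with any other sample left out (limma adjusted p 0.0932 to 0.174) or without the variance trend (0.127). Of the IGF2 mRNA-binding protein genes 0 of 2 tested passed with limma (0 at an unadjusted p below 0.05), with Igf2bp2 at 3.08 ± 0.391 and 2.68 ± 0.435 FPKM.

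**Figure D5:**
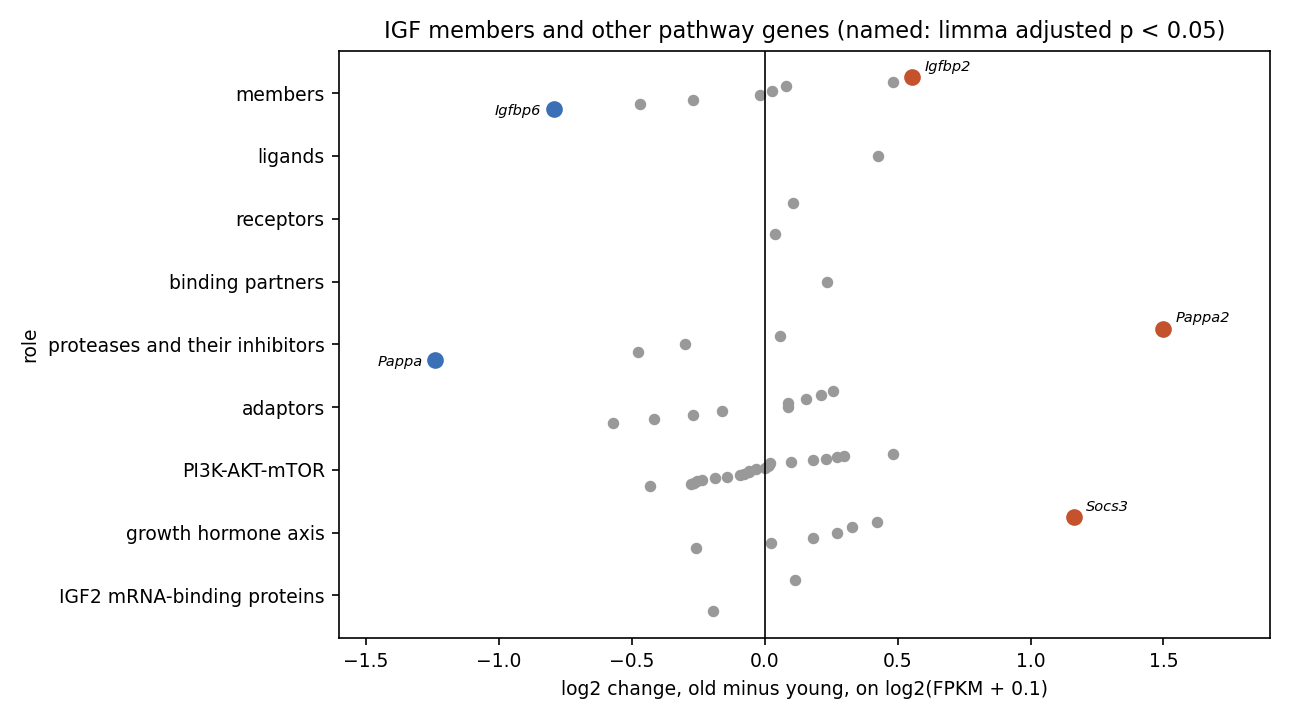
Log2 change (old minus young, on log2(FPKM + 0.1)) of the 8 IGF genes (top row) and of other pathway genes tested in 8 roles, 1 point per gene. Coloured and named points have a limma adjusted p below 0.05: Igfbp2, Pappa2 and Socs3 higher, Igfbp6 and Pappa lower, with the rest in grey.

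Markers of cell types that can carry these mRNAs also differed by age. The 12 macrophage genes summed to 143 to 231 FPKM in young and 770 to 833 FPKM in old samples, and 10 of them rose. Macrophages are a known source of IGF-1, and Igf1 overlapped between the same samples. The 8 fibroblast and fibrocyte genes summed to 10687 to 13079 FPKM in young and 8450 to 8710 FPKM in old samples, and 4 of the 8 fell. Coch and Otos, markers of fibrocytes, made up most of this sum and were highest in young replicate 2, as Igfbp6 was, while 5 of the 8 genes (Lum, Pdgfra, Col1a1, Col1a2 and Col3a1) had their lowest young value in that sample. The 8 endothelial genes summed to 93.6 to 139 FPKM in young and 54.6 to 93.4 FPKM in old samples. With limma 0 of 8 passed the threshold and 3 had an unadjusted p below 0.05. Young replicate 2 and old replicate 1 held the highest and the lowest value of both this sum and Igfbp7. The order differed for young replicate 3. It lay above every old sample in this sum, but below old replicates 2 and 3 in Igfbp7 (63.3 against 73.0 and 77.1 FPKM). The 6 pericyte and smooth muscle genes summed to 129 to 175 and 122 to 147 FPKM, and the 6 Schwann cell genes to 778 to 1203 and 661 to 690 FPKM. The 8 neuron genes summed to 525 to 1037 and 351 to 383 FPKM. The 8 osteoblast and osteocyte genes summed to 82.7 to 313 and 63.4 to 83.9 FPKM, with young replicate 1 the highest. The 6 strial genes (1342 to 1880 and 1522 to 1738 FPKM), the 6 erythrocyte genes (1434 to 2951 and 1369 to 2254 FPKM) and the 5 genes of dividing cells (1.30 to 9.47 and 2.87 to 3.33 FPKM) overlapped between the ages. The 6 skeletal muscle genes summed to 0.407 to 2.58 and 3.13 to 16.6 FPKM. No listed marker was at 0 in all samples. The part of these cell types in the changes of the IGF genes was not tested.

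The genes whose levels ran most like Igf1 over the 6 samples were Rabgef1 (Pearson's r = 0.993), Ctdnep1 (0.993), Ssx2ip (0.987), Rapgef3 (0.981) and Trmt10c (0.978), from 15073 genes with a mean of at least 1 FPKM. Like Igf1, all 5 were highest in old replicate 3 and second highest in young replicate 3. They were picked for a high r over 6 samples, so that this shared order largely follows from the choice. The Igf1 value compared was the summed FPKM, whose peak in old replicate 3 came with short transcripts of few estimated fragments. By estimated fragments Igf1 was at 2738 in old replicate 3, and its range over the 6 samples was 2631 to 3453. An r of 0.9 or more was reached by 66 genes, so that these 5 do not stand alone. The other 7 IGF genes had an r to Igf1 between -0.35 and 0.10.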

How the data were processed

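Cochlear tissue of 3 mice was mixed for each sample and directional libraries were sequenced as paired 150 bp reads. The authors mapped the filtered reads to GRCm38, ran Cufflinks (v2.1.1) for assembly and deposited FPKM per transcript and sample, computed with Cuffdiff (v2.1.1). The submitters' processing notes also name TopHat2 (v2.0.9) and CASAVA (v1.8). The annotation release and the scaling between libraries are not given in the sources used here.

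Transcripts were matched to GENCODE release M21 by identifier, and 55275 of 55679 Ensembl transcripts were found. The FPKM of the transcripts of a gene were summed. Transcripts without a match and the 992 authors' lncRNAs were kept as single genes. The age groups were compared by limma 3.58.1 in R 4.3.3 (lmFit, then eBayes with a variance trend) on log2(FPKM + 0.1), with age group as the only term, over genes or transcripts with a mean of at least 0.1 FPKM. P-values were two-sided and adjusted by the Benjamini-Hochberg method over all genes or all transcripts tested, with a threshold of 0.05. Cuffdiff, the test of the study, needs reads and was not run. Single values per sample were compared by an exact permutation test in scipy 1.17.1, and no p-value comes from another test. Fragment numbers were derived from the spacing of low FPKM of genes with 1 transcript of 1000 to 4000 nt and cover counting error only. Simulated data in which chosen genes were changed served as a test of the fit. Plots were drawn with matplotlib 3.10.9.

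The members, the lists of pathway genes and cell type markers and the tests were chosen with earlier results of these data known. The named genes are every member, the other genes of the binding protein type, Igf2, Igf2r and Insr, and for each role of the pathway list the genes past the threshold or, where none passed, the gene with the smallest unadjusted p. Results of some listed genes are not reported here. The genes most like Igf1 are the 5 with the highest Pearson correlation to it among genes with a mean of at least 1 FPKM. Alternatives of the pseudocount, filter, scaling, variance model, sample weights, replicate number, transcript choice and samples left out are given at the end. For named pathway genes they were added after the values were seen. RT-qPCR, protein, hearing and cell line data of the study were not analysed here.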

Additional observations from a re-analysis of the deposited data

How the results depend on the processing

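The count of the 8 IGF genes past the threshold (limma, 1 higher and 1 lower) was not stable. The higher count was 2 with sample weights and with a filter of 1 FPKM, 0 with no filter, without the variance trend and with the replicate number as a block, and 0 to 2 with each sample left out. The lower count was 0 with no filter and without the variance trend, and 0 to 1 with each sample left out. Of the other pathway genes (2 higher, 2 lower), the higher count was 4 with sample weights, 1 with no filter, without the variance trend, with a pseudocount of 0.01 and with quantile normalization, 0 with the block, and 0 to 1 with each sample left out. Their lower count was 7 with sample weights, 4 with a filter of 1 FPKM, 3 with median-of-ratios scaling and 3 with quantile normalization. This count was 1 with no filter, 0 without the variance trend, 1 with the block, and 0 to 2 with each sample left out. The transcript counts stayed at 0 in all 15 settings. The log2 difference of the binding protein sum was 0.16, 0.10 to 0.24 with each sample left out and 0.09 with quantile normalization.

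Direction did not turn in any of the 16 settings for Igfbp2, Igfbp3, Igfbp4, Igfbp6 and Igfbp7. It turned for Igf1 (log2 change -0.0724 to 0.197 with samples left out), Igf1r (-0.0530 to 0.0134), Igfbp5 (-0.116 to 0.116, and -0.0571 with quantile normalization) and Insr (-0.0339 to 0.0936, and -0.0815 with the most abundant transcript). All genes past the threshold numbered 1787, against 908 with no filter, 392 without the variance trend, 675 with the block and 59 to 1756 with each sample left out. The cause was not tested.

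Samples with the same replicate number did not deviate together over all genes tested (correlations 0.022, -0.042 and 0.010). Such correlations cannot exclude a pairing that touches few genes. With the block the limma adjusted p was 0.0534 for Igfbp2, 0.0400 for Igfbp6, 0.0518 for Socs3 and 0.101 for Pappa2. The fewest estimated fragments stood behind Igfbp3 among the 8 genes.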
